A study of Solanum virginianum with 24 samples.

Results

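Among the transcripts measured in eggplant fruit, 48 probe sets held close to their level at anthesis for 20 days and stood at least 2-fold lower in fruit of 50 days. They were chosen from the measured values by a fixed rule, out of 10101 probe sets in all. The values at a stage were set against the anthesis arrays (0 dpa, days post anthesis) that had been normalised with them, and the difference of the means of 3 arrays had to be -1 or less on the log2 scale at 50 dpa and under 0.5 in size at 5, 10 and 20 dpa. A gene symbol was available for 5 of the 48 (10.4%), against 909 of all 10101. These were CAT2, LCA1, CGS and 2 genes with a LOC number only, LOC544223 and LOC543709. The other 43 probe sets carried no symbol and are described as a group.

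The fruit came from the cultivar PPL, grown in a glasshouse and pollinated by hand, with no other treatment, and was taken at 0, 5, 10, 20 and 50 dpa. There were 3 arrays per stage, called biological replicates in the labels, which do not say whether fruits were pooled. The series title names Solanum melongena and the sample records Solanum virginianum. The array was a tomato GeneChip, so eggplant RNA was read by probes designed on tomato sequence, and each symbol is a tomato gene's. The deposited log2 values are centred within each probe set and carry no information on signal strength, so a value below tells how far an array lay from the mean of the 0 dpa arrays of its set, and absence of a transcript cannot be read from it. In whole fruit, fewer cells of a type and less RNA per cell cannot be told apart.

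The end of fruit development brings together softening, loss of chlorophyll and a shift in peroxide handling, and genes used through growth can lose expression at this stage. Catalases break down hydrogen peroxide in peroxisomes and are encoded by several genes in plants of this family. Calcium ATPases pump calcium out of the cytosol, and cystathionine gamma-synthase directs carbon and sulphur into methionine, from which the ethylene precursor is made.

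CAT2, a catalase gene, had the deepest fall among the named members. Its 3 arrays at 50 dpa lay at -2.54, -2.72 and -2.41, against 0.08, -0.03 and -0.05 for the 0 dpa arrays of the same set. At 5 dpa they lay at 0.37, 0.46 and 0.29, at 10 dpa at 0.16, 0.18 and 0.10, and at 20 dpa at 0.45, 0.49 and 0.41. The transcript was thus a little above anthesis on all 9 arrays of the growing fruit, and each of the 3 late arrays was far below every earlier one. The difference from 0 dpa was 0.37 ± 0.087 at 5 dpa, 0.15 ± 0.074 at 10 dpa, 0.45 ± 0.075 at 20 dpa and -2.56 ± 0.10 at 50 dpa (standard error from limma, n = 3 and 3), the last being 5.89-fold lower. Between 20 and 50 dpa the value fell by 3.00, across sets that were normalised separately. As the members were chosen by these differences, they are given without a test.

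A second catalase gene on the array, cat1, is not a member and went the other way at 50 dpa. At 5, 10 and 20 dpa the means of both genes lay above anthesis. Its arrays lay at 0.30, 0.39 and 0.32 at 5 dpa, at 0.88, 0.87 and 0.89 at 10 dpa, at 0.90, 0.90 and 0.85 at 20 dpa and at 0.87, 0.97 and 1.03 at 50 dpa. Transcripts of cat1 rose at each stage against 0 dpa, by 0.33 ± 0.077 at 5 dpa (limma, adjusted p = 0.0116), 0.88 ± 0.072 at 10 dpa (adjusted p = 2.64e-05), 0.88 ± 0.075 at 20 dpa (adjusted p = 4.48e-05) and 0.96 ± 0.081 at 50 dpa (adjusted p = 4.25e-05). All 12 of its later arrays were above the 0 dpa mean. The size of the gap between the 2 catalase genes was not tested, since CAT2 was selected for its fall.

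CAT2 belongs to a list of genes of hydrogen peroxide, ascorbate and phenol oxidation, matched by 18 probe sets of 15 genes. Of the 17 probe sets beside CAT2, 8 rose at 50 dpa, 4 fell and 5 did not pass (limma, adjusted p of 0.05), with a median of 0.22. Over all probe sets the median was 0.021, with 20.6% called higher and 19.5% lower. SODCC.1, a copper/zinc superoxide dismutase gene, rose by 0.79 ± 0.082 (adjusted p = 0.000141). TPX2, a peroxidase gene, had a difference of -0.67 ± 0.11 (adjusted p = 0.00161). DHAR1, which encodes dehydroascorbate reductase, was lower on both of its probe sets (-0.66 ± 0.076, adjusted p = 0.000244, and -0.50 ± 0.086, adjusted p = 0.00215). TPX2 had already been called lower at 10 dpa (-0.41) and 20 dpa (-0.42). So had DHAR1, at -0.55 on both probe sets at 10 dpa and at -0.79 and -0.74 at 20 dpa. SODCC.1 did not pass at 5, 10 or 20 dpa. CAT2, which the rule chose for its fall, lay lowest of the 18, and the next lowest was TPX2.

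**Figure D1:**
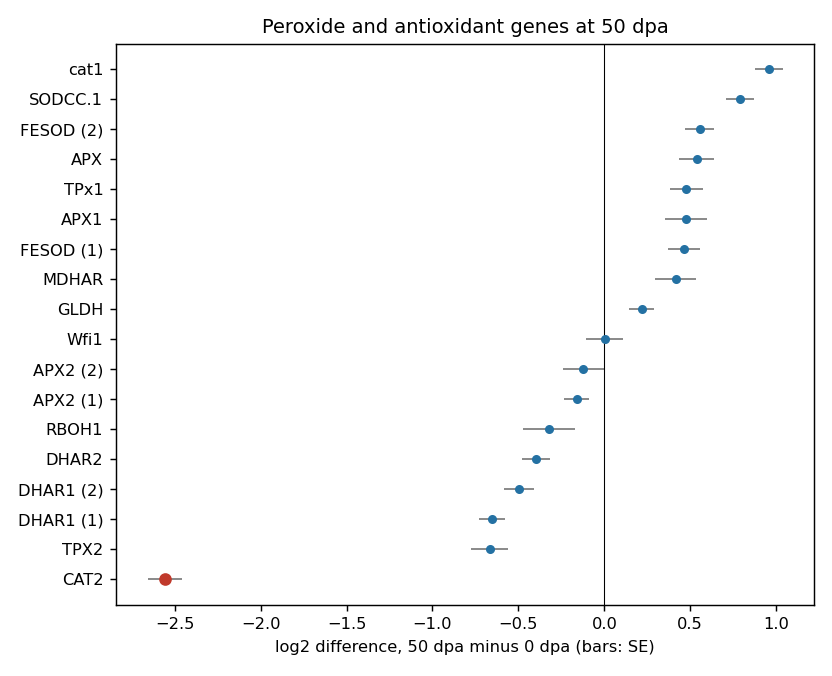
Log2 difference between 50 and 0 dpa (horizontal axis) for the 18 probe sets of the peroxide and antioxidant list, with standard errors from limma as bars and n = 3 arrays per stage. CAT2, in red, lies at -2.56, and cat1 at the top at 0.96.

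LCA1, which encodes a calcium ATPase of internal membranes, lay at -0.97, -1.02 and -1.44 on the arrays of 50 dpa. Its earlier arrays were at 0.27, 0.13 and 0.31 at 5 dpa, at 0.11, 0.07 and -0.20 at 10 dpa and at 0.01, 0.04 and 0.12 at 20 dpa. Replicate 3 of 50 dpa was the lowest, and the groups of 0 and 50 dpa did not overlap. The difference at 50 dpa was -1.15 ± 0.13, 2.21-fold lower, and without that replicate it was -0.9994, just outside the rule. Of 14 genes in a list of membrane transport and ion uptake, LCA1 was the single member. Among the other 13, 3 rose, 4 fell and 6 did not pass at 50 dpa, with a median of -0.056, where 20.6% of all probe sets were called higher and 19.5% lower. In the plain test named in the study's methods 1 of the list rose.

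In that list FER, a transcription factor gene of iron uptake, rose by 1.27 ± 0.30 (limma, adjusted p = 0.00954), a call that did not pass in the plain test named in the study's methods (adjusted p = 0.09, with 0.000981 to 0.032 over the other alternatives). The aquaporin gene pip1 rose by 0.97 ± 0.12 (adjusted p = 0.000325). LHA1, a plasma membrane proton ATPase gene, fell (-0.86 ± 0.089, adjusted p = 0.000135), and so did FRO1, a ferric reductase gene (-0.71 ± 0.13, adjusted p = 0.00283). LHA1 and FRO1 had also been lower at 5 and 10 dpa, at -0.49 and -0.92 at 5 dpa and -0.86 and -0.69 at 10 dpa. At 20 dpa LHA1 was at -0.07 and did not pass (limma, adjusted p = 0.505), while FRO1 was at -0.82 (adjusted p = 0.000413). The rule held LCA1 within 0.5 at these stages, so its early values are not set against theirs.

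CGS, the gene for cystathionine gamma-synthase, gave the closest replicates of the named members at 50 dpa, at -0.99, -1.03 and -1.005. Its arrays were at 0.25, 0.50 and 0.29 at 5 dpa, at 0.27, 0.26 and 0.07 at 10 dpa, and at -0.13, -0.13 and -0.13 at 20 dpa. The profile passed from above anthesis in young fruit to slightly below it at 20 dpa and to 2.01-fold below it at 50 dpa (-1.007 ± 0.075). CGS is the shallowest of all 48 members.

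Further genes of methionine use were looked up after the values had been seen. SAM3, an S-adenosylmethionine synthetase gene, was higher than at anthesis at 10 dpa (0.97 ± 0.11, adjusted p = 0.000168) and at 20 dpa (0.58 ± 0.091, adjusted p = 0.00128), and lower at 50 dpa (-1.34 ± 0.0996, adjusted p = 1.98e-05). SAHH, the S-adenosylhomocysteine hydrolase gene, lay at -0.67, -0.75 and -0.64 at 50 dpa (-0.69 ± 0.075, adjusted p = 0.000177) and at 0.17, 0.18 and 0.16 on average at 5, 10 and 20 dpa. SAM1, of the same enzyme family as SAM3, was lower at 5 dpa (-0.70, limma, adjusted p = 0.000343) and 10 dpa (-0.86, adjusted p = 5.76e-05). It was higher at 20 dpa, by 0.34 ± 0.077 (adjusted p = 0.00806), and at 50 dpa, by 0.30 ± 0.076 (adjusted p = 0.0134). MTA was looked up with them, but its symbol alone does not place it in methionine use. Its value at 50 dpa was 0.20 and did not pass (limma, adjusted p = 0.21).

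LOC544223 lay at -1.29, -1.15 and -1.16 at 50 dpa, a difference of -1.199 ± 0.083. Before that its arrays ranged from -0.10 to 0.33 at 5 dpa, and stood at 0.19, 0.14 and 0.12 at 10 dpa and at 0.17, 0.13 and 0.28 at 20 dpa. LOC543709 lay at -1.09, -0.89 and -1.06 at 50 dpa (-1.01 ± 0.091), after 0.19, 0.35 and 0.20 at 5 dpa, 0.07, 0.29 and 0.19 at 10 dpa and -0.12, -0.07 and -0.06 at 20 dpa. In both genes the 3 late arrays were below all 9 earlier ones. The platform annotation gives neither a name beyond the number.

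**Figure D2:**
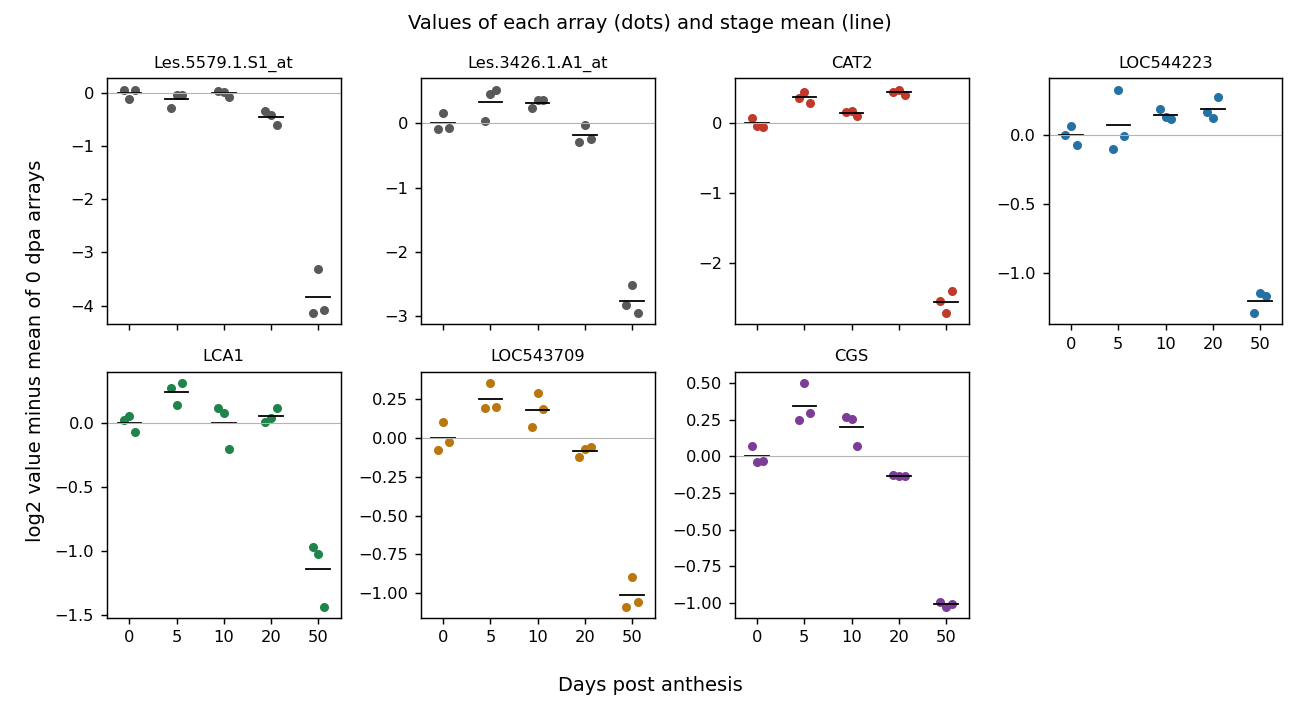
Value of each array (dots) relative to the mean of the 0 dpa arrays of its set, on the log2 scale, with the stage mean as a line, for the 2 members without a symbol that fell most and the 5 named members; the 0 dpa dots are those of the 50 dpa set, and the vertical axes differ between panels. In each panel the 3 dots at 50 dpa lie below all the others.

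The deepest fall of all was that of a probe set with no symbol, which lay at -4.14, -3.31 and -4.08 at 50 dpa. It had already been at -0.34, -0.41 and -0.60 at 20 dpa, after 0.04, 0.02 and -0.08 at 10 dpa. Its difference at 50 dpa was -3.84 ± 0.21, 14.4-fold lower. The next deepest, also without a symbol, lay at -2.82, -2.52 and -2.95 (-2.77 ± 0.13), which had stood at 0.23, 0.37 and 0.36 at 10 dpa. Of the 48 members, 10 were at least 4-fold lower at 50 dpa, 1 of them with a symbol, CAT2, and 16 had a fall of at least 1.5 on the log2 scale. The median was -1.30, or 2.47-fold lower, with quartiles of -1.67 and -1.13.

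All 48 members had arrays at 50 dpa that did not overlap those of 0 dpa, as the rule all but fixes. Over all probe sets 24.4% were lower without overlap and 26.4% higher. For each of the 48, every one of the 9 arrays of 5, 10 and 20 dpa also lay above every array of 50 dpa, by a gap of 0.25 to 2.71 with a median of 0.87. The rule all but fixes this count too, the comparison crosses sets normalised separately, and over all probe sets 12.7% met it. The median over members was -1.32, -1.33 and -1.29 on replicates 1, 2 and 3 of 50 dpa, and the lowest array was replicate 1 in 18 members, replicate 2 in 11 and replicate 3 in 19. The 3 arrays spanned 0.016 to 0.83 per member, with a median of 0.19, and in 6 members they spanned more than 0.5.

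**Figure D3:**
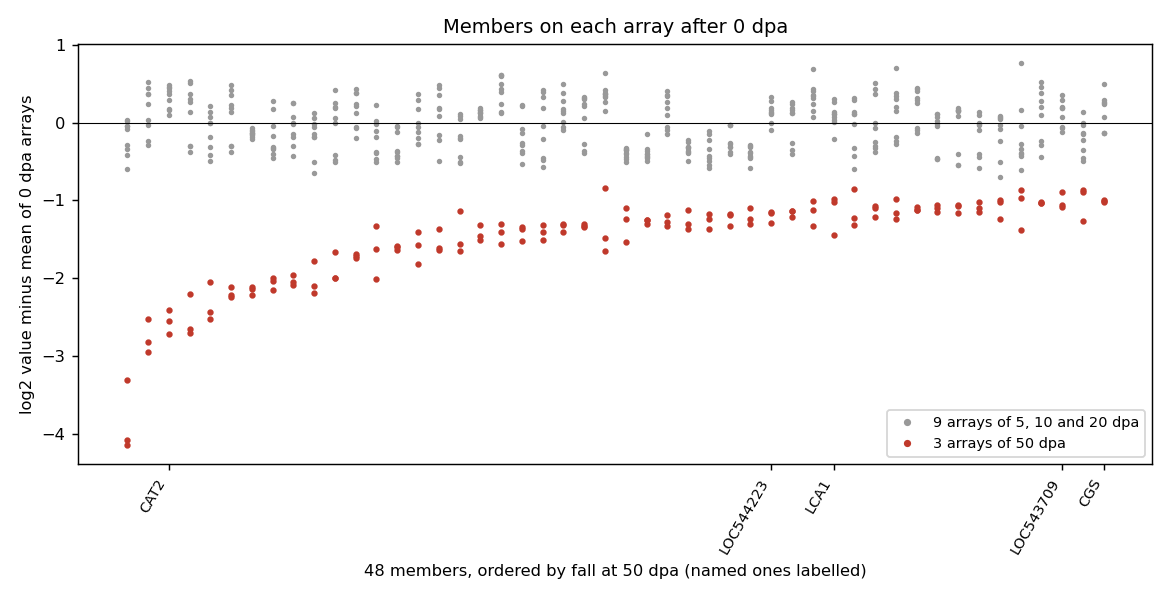
Each member is a column, ordered by its fall, with the 9 arrays of 5, 10 and 20 dpa in grey and the 3 arrays of 50 dpa in red, on the log2 scale relative to the 0 dpa mean of the set. Red dots lie below grey dots in all 48 columns, with the narrowest gap at 0.25.

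The members did not behave alike before 50 dpa. Their median was 0.15 at 5 dpa, 0.084 at 10 dpa and -0.30 at 20 dpa, against -0.0085, -0.025 and -0.022 over all probe sets. At 5 dpa 34 of the 48 were above anthesis and 14 below, at 10 dpa 28 and 20, and at 20 dpa 9 and 39. Of all 6743 probe sets within the band at these stages, 52.3%, 55.0% and 55.6% were below anthesis at 5, 10 and 20 dpa. The stage with the lowest early value was 20 dpa in 34 members, 10 dpa in 10 and 5 dpa in 4. In 20 members the mean fell at every step from 5 to 10, 20 and 50 dpa. The rule used these values and fixes the last step, so the counts are a description only.

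By the signs of their early differences, 19 members were above anthesis at 5 and 10 dpa and below it at 20 dpa, CGS and LOC543709 among them. Their medians ran from 0.24 and 0.198 to -0.29 and then -1.27. A further 10, none of them with a symbol, were below anthesis throughout, with medians of -0.24, -0.36 and -0.38 before -1.28 at 50 dpa, and the probe set with the deepest fall is one of these. CAT2 and LOC544223 belonged to the 6 members that stayed above anthesis until 20 dpa, where this group had a median of 0.36. In 7 members the mean was above anthesis at 5 dpa and below it at 10 and 20 dpa, and LCA1 was among 6 with other orders. These groups rest on signs alone, and some differences were smaller than their standard error, as for LCA1 at 10 dpa (-0.0059 ± 0.10). Only 5 members kept all 3 early differences under 0.25.

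**Figure D4:**
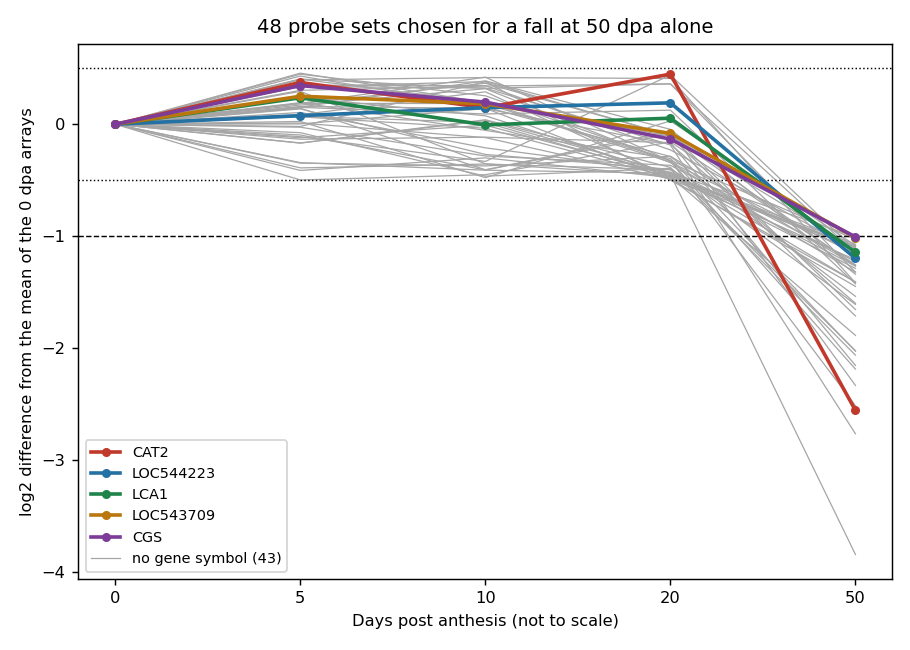
Difference of each stage mean from the 0 dpa mean of its set (vertical axis, log2) for the 48 members, with the 5 named members in colour and the 43 without a symbol in grey. Dotted lines mark the band of 0.5 and the dashed line the limit of -1; CAT2 lies at 0.45 at 20 dpa and, at -2.56, is the lowest named member at 50 dpa.

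The word only in a description of these transcripts as lost at 50 dpa rests on the band of 0.5, which is a 1.41-fold change. At 20 dpa 25 of the 48 members were called lower in limma (background 20.1%) and 3 higher (background 17.8%), 1 of these with a symbol, CAT2. At 10 dpa 13 were called lower (background 19.4%) and 12 higher (background 15.9%), and at 5 dpa 5 lower (background 16.4%) and 8 higher (background 15.6%), CAT2 and CGS among the latter. At 50 dpa all 48 were called lower, where 19.5% of all probe sets were. Arrays of 20 and 0 dpa did not overlap in 30 members that were lower (background 26.7%) and 6 that were higher (background 22.7%). At 10 dpa this held for 15 lower (background 25.5%) and 22 higher (background 21.2%), and at 5 dpa for 8 lower (background 24.5%) and 18 higher (background 22.4%). The 4 comparisons share the 0 dpa arrays, and the rule used each of them, so nothing is read from the counts. The set is best taken as transcripts with a small early change and a late fall of 2-fold or more.

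At the limit of -1 the values ran on without a break. Just inside lay CGS (-1.007), an unnamed probe set (-1.007) and LOC543709 (-1.01), and just outside 3 unnamed probe sets at -0.99, -0.98 and -0.97, then LOC544312 (-0.96), PLDa1, a phospholipase D gene (-0.88), and LOC543961 (-0.86). At the band of 0.5, SBT1, a subtilisin-like protease gene, was outside by its 0.55 at 5 dpa, although it reached -2.34 at 50 dpa. LOC543561 was at 0.66 at 5 dpa and -1.96 at 50 dpa. FPPS1, the farnesyl diphosphate synthase gene, missed at 10 dpa (0.55, then -2.13 at 50 dpa), as did LOC778302 (0.60, then -2.75) and GABA-TP2, a GABA transaminase gene (1.11, then -1.28). At 20 dpa gdh1, a glutamate dehydrogenase gene (-0.57, then -1.10), and the beta-galactosidase genes TBG3 (0.65, then -1.16) and TBG1 (-0.71, then -1.95) were outside. Among members the early values nearest to the band were -0.498 at 5 dpa, -0.48 at 10 dpa and -0.499 at 20 dpa.

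Late falls with no larger early change were the smaller part of all late falls. At 50 dpa 434 probe sets (4.30%) were at least 2-fold lower, and the 48 were 11.1% of them, although the 6743 probe sets within the band at 5, 10 and 20 dpa were 66.8% of all. Of the other 386, 263 were already at -0.5 or below at 20 dpa, 136 of them at -1 or below, and 36 were at 0.5 or above at that stage. In 82 the band was missed at 20 dpa alone and downwards. A rise of at least 2-fold at 50 dpa was seen in 438 probe sets (4.34% of all). The mirror pattern, such a rise after the same flat start, was met by 74 of these, or 16.9%. These counts follow from the limits chosen and were not tested against each other.

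**Figure D5:**
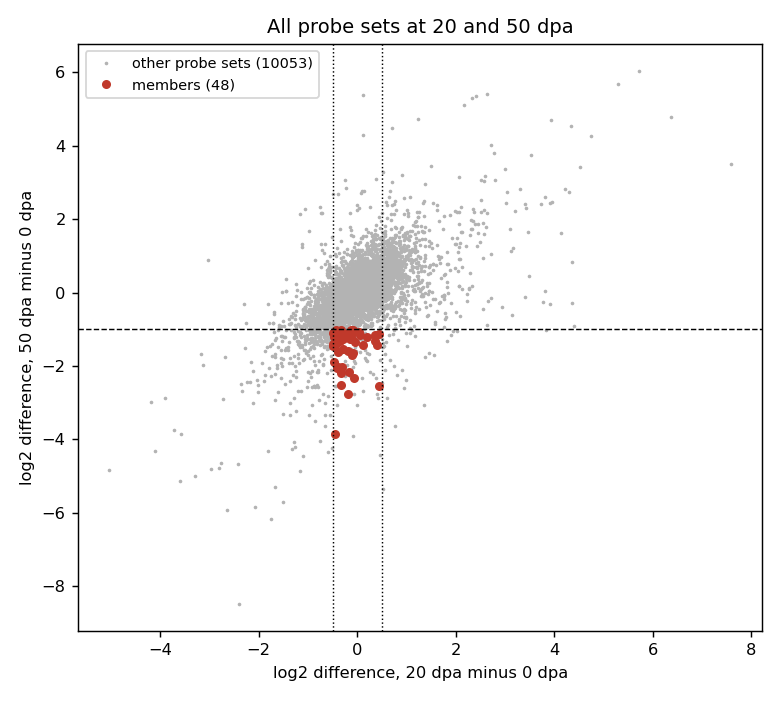
Log2 difference from 0 dpa at 20 dpa (horizontal axis) and at 50 dpa (vertical axis) for all 10101 probe sets, with the 48 members in red and the limits of the rule at these 2 stages as lines. All members lie within the band at 20 dpa, and most of them to the left of 0, with 39 of 48 below it.

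Some properties of the members did not enter the rule. The spread among the 3 arrays of a stage had a median over members of 0.10 (SD, log2) at 50 dpa, against 0.12 over all probe sets, and of 0.069 against 0.11 at 20 dpa. With stage means taken off, the profiles of 2 members over the 12 later arrays had a median Pearson correlation of 0.020 over 1128 pairs, with 52.0% of pairs above 0, as a description of arrays that all members share. Over the 9 arrays of 5, 10 and 20 dpa, with stage means kept, the median was 0.32 with quartiles of -0.13 and 0.73. Those stage means did enter the rule, so nothing is read from this value. An identifier with the letter A, which the array's maker uses for a source sequence of antisense orientation, belonged to 2 of the 48 (4.17%), to 65 of the 434 probe sets lower at 50 dpa and to 23.5% of all. A pair of unnamed members carried the same cluster number, 3160,. Their differences at 50 dpa were -1.16 and -1.12, and at 20 dpa -0.34 and -0.23.

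For the actin control, the 5' value minus the 3' value was higher by 0.39 at 50 dpa than at 0 dpa, and for GAPDH by 0.32. As no signal level is left, the size of the gap itself is unknown. At 20 dpa, where the members were within the band, these shifts were 0.52 and 0.95, and at 5 dpa 1.09 and 0.77. Their part in the members' values was not tested. Of 6 probe sets for a pollen and anther list 1 fell at 50 dpa, the hexose transporter gene HT1 (-0.79), which a sugar list also holds, and the list's median was -0.16. The single match to a seed list, the mannanase gene MAN2, rose at 5 dpa (0.71, limma, adjusted p = 0.0492), 10 dpa (1.91, adjusted p = 0.00241) and 20 dpa (3.81, adjusted p = 1.27e-05) and was at 0.03 at 50 dpa (adjusted p = 0.922). The value of this gene was thus lower at 50 than at 20 dpa, the step at which the members fell, across sets normalised separately, and its part in their values was not tested.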

How the data were processed

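Per the labels, total RNA of fruit was hybridised to the Affymetrix tomato array. RMA log2 values were made by the authors in GeneSpring GX 11.5, per the series design text and the submitters' processing notes. Copies of the 3 anthesis arrays were processed together with every later stage, per the sample titles in the labels, which gives 4 sets of 6 columns for 15 arrays. The deposited log2 values have a median of 0 over the 6 columns of a set for each probe set, so they hold no level and no filter on dim probes could be made. A positive value was taken as higher expression, which could not be checked against scanner values. The 108 AFFX control probe sets were left out; the 10101 kept include 63 reporter probe sets, none a member. Symbols came from the platform annotation of 2007.

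Members were found by the rule given above. Each stage was fitted against the 0 dpa columns of its set with limma 3.58.1 in R 4.3.3 (two-sided, Benjamini-Hochberg over all probe sets, threshold 0.05), checked on simulated data. All named members are given. For each list that holds one, the other genes with the 2 largest rises and 2 deepest falls are given. At each limit, up to 3 probe sets with a symbol on either side are given. The members and lists were chosen with earlier results of these data known. The number of arrays limits the precision. Whether replicates came from separate plants is not given in the sources used here, so p values measure the spread between these arrays. Probes of tomato can bind eggplant transcripts of related genes. Figures were drawn with matplotlib 3.10.9.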

Additional observations from a re-analysis of the deposited data

How the results depend on the processing

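The rule gave 43 to 52 members when each of the 15 arrays was left out in turn, and 27 of the 48 met it every time, CAT2 and LOC544223 among them. LCA1 missed it once, CGS in 2 cases and LOC543709 in 3, each by a value at 50 dpa between -0.9994 and -0.96. With medians in place of means 44 probe sets met the rule, 38 of them members. Other limits changed the number most: 91 with a fall of at least 0.8, 16 with at least 1.5, 6 with early differences under 0.3 and 121 with under 0.75, as fewer or more probe sets then qualify. The members' median at 50 dpa was -1.27 after quantile normalisation of the 6 columns and ranged from -1.34 to -1.28 over single arrays left out. For the 7 probe sets given by array, 54 of 56 alternative values at 50 dpa moved by less than the replicate SD and none changed direction. The 2 that moved further were those of CGS without replicate 1 or 2 of 0 dpa (-0.972 and -1.026). CGS had an SD of 0.0175 at 50 dpa. When 1 of 3 arrays is left out, the mean of a stage always moves by less than the SD of that same stage. Part of the count of 54 was thus fixed in advance. The numbers of probe sets called at 5 dpa were 3230 in limma and 2113 in the methods' t-test, and the rises in the transport list at 50 dpa were 3 and 1. Without single arrays the counts ran from 2453 to 3090 at 5 dpa, 2939 to 3122 at 10 dpa, 3183 to 3472 at 20 dpa and 3420 to 3657 at 50 dpa. Same-numbered arrays deviated together with correlations of -0.0168 to 0.102, and differently numbered arrays with -0.11 to 0.0511. The first range lay higher, but all values were small, so the numbers were not taken to pair samples. With the replicate block 3831 probe sets were called at 50 dpa against 4041 without it, 3073 at 5 dpa, 3403 at 10 dpa and 3725 at 20 dpa. The alternatives for 5, 10 and 20 dpa, for the lists and for genes that are no members were chosen after seeing the data. The causes of these differences were not tested.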
